A study of Mus musculus with 20 samples.

Results

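The 38 genes described here are Atf4, the transcription factor that drives the amino acid response, 11 other genes of the cellular stress response, 5 amino acid transporters, 3 kinases of the translation factor eIF2 and 18 cytosolic aminoacyl-tRNA synthetases. They were taken by symbol from the 51456 gene symbols of the deposited per-library tables, and all 38 were found. The cells were macrophages grown for 6 days from the bone marrow of C57BL/6 mice aged 4 to 5 months, and their polyadenylated RNA was sequenced with strand kept. Every culture received 50 ng/ml of CSF-1, the growth factor that turns marrow cells into macrophages. There were 3 genotypes: wild type (WT, 10 libraries), a Trem2 knockout labelled TREM2 5bp KO (KO, 5 libraries) and a knock-in of the Alzheimer's disease variant of the receptor, labelled TREM2 R47H KI (R47H, 5 libraries). Trem2 is a surface receptor of myeloid cells that binds lipids. Per the design text each mutant line had its own wild-type littermates and 5 animals were used per genotype, but no label ties a WT library to a line. Both mutants were therefore set against all 10 WT libraries, and each was also set against WT Rep1 to Rep5 or WT Rep6 to Rep10 by itself. Both mutant comparisons share these controls and are not independent of each other.

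Levels are given in FPKQ, the unit named in the deposited tables, read here as fragments per kilobase on a scale set by a quantile of each library. FPKQ 1 in a gene of 2 kb stood for about 61.7 ± 5.17 fragments in WT, 52.3 ± 3.87 in KO and 53.2 ± 3.72 in R47H. Here and below, ± is the SD over 10 WT, 5 KO or 5 R47H libraries unless a wild-type set of 5 is named. Trem2 itself lay between 691 and 901 in WT, 23.7 and 24.8 in KO, and 496 and 794 in R47H. R47H Rep4 and Rep5 had the lowest Trem2 of the R47H libraries, so results of R47H are also given without them for some genes whose call then changed. Macrophage genes were expressed in every group, with Csf1r, the receptor of CSF-1, at 935 ± 40.3 in WT, 1308 ± 55.0 in KO and 1085 ± 116 in R47H. Of 8 such markers 4 rose and 3 fell in KO, and 4 rose and 2 fell in R47H. The shares of all tested genes were 28.2% higher and 23.7% lower in KO, and 13.4% and 7.83% in R47H. Cd14 went from 731 ± 118 in WT to 301 ± 20.6 in KO and 581 ± 40.5 in R47H, and Mertk from 14.1 ± 3.18 to 52.3 ± 3.66 and 25.7 ± 2.45. Differences below are on the log2(FPKQ + 1) scale with their standard error (SE), come from limma, and are said to have risen or fallen where the Benjamini-Hochberg adjusted p over all 10843 tested genes was under 0.05. In cultures measured in bulk, fewer cells of a type and less RNA per cell cannot be told apart.

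When a cell runs short of an amino acid, uncharged tRNA activates the kinase Gcn2 (Eif2ak4), which phosphorylates eIF2. Most translation then slows while Atf4 mRNA is translated more, and Atf4 protein turns on genes for amino acid synthesis, uptake and tRNA charging. Stress in the endoplasmic reticulum (ER) reaches the same point through the kinase Perk (Eif2ak3), and double-stranded RNA through Pkr (Eif2ak2). Because this control acts largely on translation and on protein phosphorylation, transcript levels show only one layer of it.

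Atf4 and its partner C/EBP proteins bind composite DNA elements, of which TGATGNAA is one written form. RefSeq promoter windows on GRCm38.p6, which run from 250 bases before to 50 bases after a transcript's start, were found for 27 of the 38 genes. The motif was searched on both strands (TGATGNAA and TTNCATCA). It occurred in 9 of these 27 genes (33.3%), against 4.51% of all 27025 genes with a window and 3.97% of all 32851 windows of the same length. The 9 were Atf3, Chac1, Trib3 and Asns among the stress genes and Yars, Gars, Aars, Iars and Tars among the 10 synthetases with a window. None of the 3 transporters or 3 kinases with a window held it, nor did any of 14 mitochondrial synthetases or 6 other cytosolic synthetase genes. Of 19 further genes with a window that Atf4 is known to induce, 6 held it (31.6%), a share close to that of the members. It was also found in 1 of 12 eIF2 genes, 1 of 16 ER stress genes and 2 of 13 other transporters on the lists described below. The 6 matches that lie before the start are shown because they place members that moved in KO (Atf3, Asns, Gars and Tars) beside one that was not called (Aars) and one too low to test (Chac1). Each is written 5′ to 3′ on the gene's strand, with the motif in capitals and up to 20 bases on either side.
Atf3 (chr1:191183416-191183463, minus strand): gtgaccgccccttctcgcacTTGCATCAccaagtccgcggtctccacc
Chac1 (chr2:119351029-119351076, plus strand): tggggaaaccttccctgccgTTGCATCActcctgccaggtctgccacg
Asns (chr6:7693210-7693252, minus strand): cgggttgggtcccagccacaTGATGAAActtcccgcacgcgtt
Gars (chr6:55037951-55037998, plus strand): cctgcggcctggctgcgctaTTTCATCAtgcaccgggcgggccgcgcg
Aars (chr8:111033710-111033757, plus strand): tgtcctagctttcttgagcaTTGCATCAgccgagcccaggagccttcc
Tars (chr15:11399659-11399693, minus strand): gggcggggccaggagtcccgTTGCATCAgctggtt
The match in Asns began 23 bases before the start, that in Gars 30, that in Tars 15, that in Atf3 110, that in Aars 112 and that in Chac1 193. A match is a description of the letters in the window and does not show that a factor binds there.

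In KO macrophages the larger share of these genes was lower than in wild type. Of 37 members with a mean of at least 1 FPKQ, 19 fell (51.4%) and 9 rose (24.3%), where 23.7% of all tested genes were lower and 28.2% higher. The median difference of the members was -0.12, against 0.01 over all tested genes. The falls covered Atf4, Atf3, Ddit3, Trib3 and Asns, 4 of the 5 transporters and 10 of the 18 synthetases. The rises covered Atf5, Ppp1r15a, Sesn2, Ddit4, the transporter chain Slc3a2, the kinase Eif2ak3 and the synthetases Lars, Nars and Wars. Chac1, an enzyme that degrades glutathione, stayed below the minimum level in every group at 0.218 ± 0.117 in WT, 0.130 ± 0.0519 in KO and 0.113 ± 0.0792 in R47H.

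In R47H macrophages fewer members were called. Of the 37, 7 fell (18.9%) and 5 rose (13.5%), beside 7.83% lower and 13.4% higher among all tested genes, and 25 did not pass the test. The median was -0.04 against 0.04 over all genes. The transporters accounted for 4 of the 7 falls, and 16 of the 18 synthetases were not called. The share of calls that were higher depended on scaling: among all genes it was 54.3% in KO and 63.1% in R47H as deposited, 36.2% and 20.6% after setting the libraries to equal sums, and 48.6% in R47H after quantile normalization. Equal sums moved the median of all genes in R47H from 0.04 to -0.07, and 15 members then fell and 3 rose. Of the 10843 tested genes 1830 then fell and 475 rose, against 849 and 1452 as deposited.

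**Figure D1:**
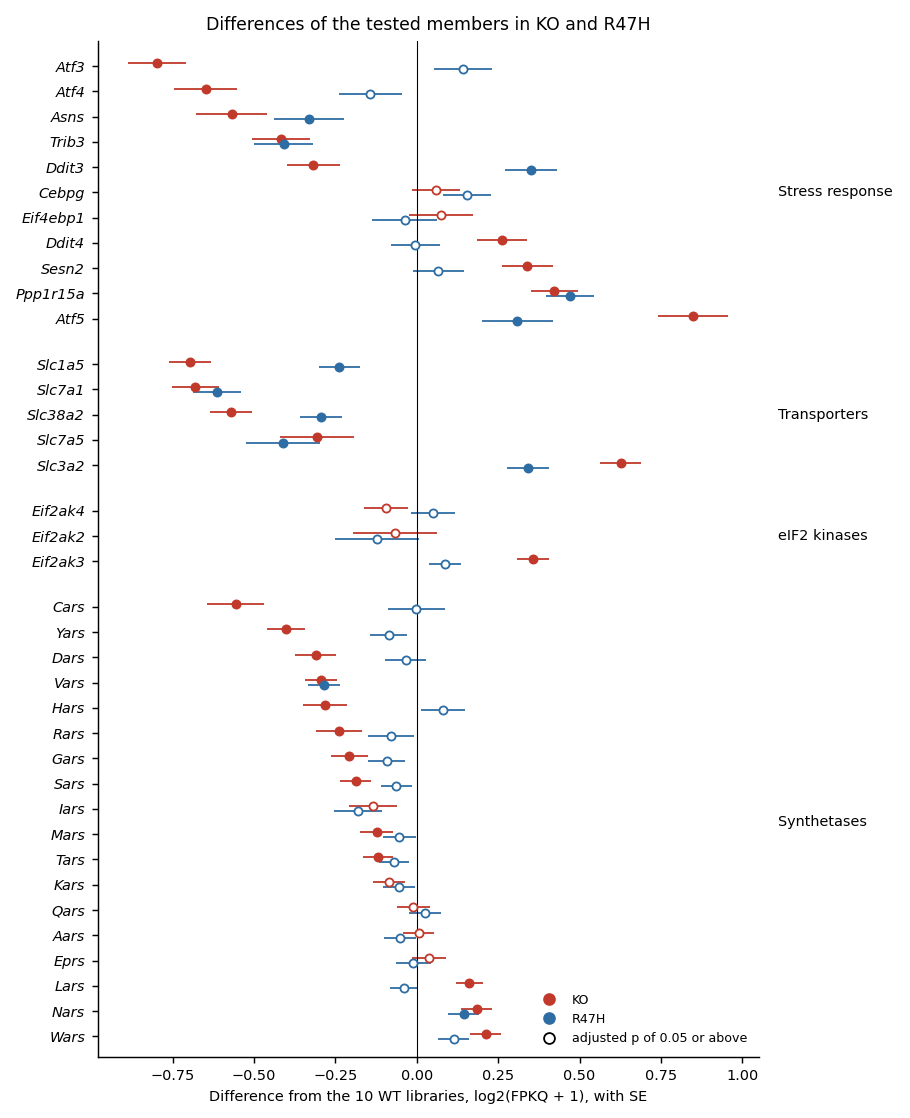
Difference of each of the 37 tested members from the 10 WT libraries on the log2(FPKQ + 1) scale (horizontal axis), in KO (red) and R47H (blue), with bars of 1 SE and open circles where the limma adjusted p was 0.05 or above. Genes are grouped by role. Ddit3 lies at -0.32 in KO and 0.35 in R47H, and Slc3a2 is the single transporter gene to the right of 0 in both.

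Atf4 (chr15:80255184-80257541, plus strand, GENCODE M21) was lower in KO. Its level in WT ran from 109 to 157 with a median of 119.5. In KO it was 75.7, 80.0, 74.7, 88.6 and 83.5. Every KO library lay below every WT library, and the mean was 63.0% of that of WT (difference -0.65, SE 0.10, adjusted p = 8.2e-06). In R47H Atf4 was 100.5, 122, 144, 108 and 103, with Rep1, Rep4 and Rep5 below the lowest WT library. The difference of -0.14 (SE 0.10) was not called (adjusted p = 0.32). With quantile normalization or equal sums the same gene was called lower in R47H at -0.26 in both (adjusted p = 0.038 and 0.030). R47H was above KO by 0.51 (SE 0.11, adjusted p = 0.0013).

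Atf3 (chr1:191170296-191218039, minus strand), a stress-induced factor of the same family that restrains inflammatory genes in macrophages, had the highest level of the 38 in WT and, on the log2(FPKQ + 1) scale, the largest fall in KO. By ratio Slc7a1 fell further, to 51.9% of WT against 56.9% for Atf3. Its WT libraries ran from 183 to 278 with a median of 248. The KO libraries stood at 134, 125, 140.2, 137 and 156, with no overlap. The difference was -0.80 (SE 0.09, adjusted p = 1.4e-07). R47H libraries stood at 259, 270.4, 303, 235 and 266, and their mean did not differ from all WT libraries beyond the test (0.14, adjusted p = 0.28). WT Rep6 to Rep10 were themselves above WT Rep1 to Rep5 at 271 ± 8.30 against 215 ± 22.0 (n = 5 each). Against WT Rep1 to Rep5 alone R47H was higher by 0.31 (adjusted p = 0.0046). R47H exceeded KO by 0.94 (SE 0.10, adjusted p = 5.3e-07).

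Ddit3, which encodes Chop, a factor induced with prolonged stress, went in opposite directions in the mutants. It was 26.2, 26.4, 23.2, 28.4 and 21.8 in KO and 37.5, 41.2, 40.9, 38.9 and 44.2 in R47H, with WT between 25.4 and 37.0 around a median of 31.0. All R47H libraries lay above all WT libraries, while the KO libraries overlapped the lower end of WT. The difference was -0.32 (SE 0.08, adjusted p = 0.0023) in KO and 0.35 (SE 0.08, adjusted p = 0.0032) in R47H, and R47H was above KO by 0.67 (SE 0.09, adjusted p = 1.1e-05). GENCODE M21 places Ddit3 at chr10:127290774-127296288 and a further protein-coding entry of the same symbol at chr10:127290829-127293753, both on the plus strand. No source used here says which of them the deposited Ddit3 values cover. Ddit3 overlaps Mars on the other strand, and no source used here says whether the counting kept the strands apart. Mars itself differed by -0.12 in KO and -0.05 in R47H.

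Atf5, a related factor that is translated under stress and linked to mitochondrial protein quality, showed the largest rise among the members. KO libraries were at 25.7, 24.5, 24.8, 26.1 and 25.9. WT ran from 11.4 to 16.8 with a median of 13.5. The groups did not overlap, and KO reached 184.5% of the WT mean (0.85, SE 0.11, adjusted p = 1.0e-06). R47H libraries were widely spread at 11.9, 19.5, 22.9, 17.6 and 15.8, and R47H Rep1 and Rep5 lay within the wild-type range. Their rise of 0.31 passed the test narrowly (adjusted p = 0.046) and failed it in 21 of 30 alternatives. It was not called without any 1 of 14 libraries (WT Rep1, Rep2, Rep3, Rep5, Rep7 or Rep9, any KO library, or R47H Rep2, Rep3 or Rep4, differences 0.21 to 0.31, adjusted p = 0.052 to 0.17). Atf5 overlaps Nup62 and Il4i1 on the opposite strand.

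Ppp1r15a (chr7:45522916-45526268, minus strand) encodes Gadd34, the subunit that directs a phosphatase to remove the phosphate from eIF2. It was 21.2, 21.9, 22.6, 23.6 and 19.8 in KO and 22.6, 23.2, 24.3, 23.3 and 19.7 in R47H. WT ran from 13.97 to 19.95 with a median of 15.2, so that only KO Rep5 and R47H Rep5 reached into the range of WT. The rise was 0.42 (SE 0.07, adjusted p = 4.8e-05) in KO and 0.47 (SE 0.07, adjusted p = 6.5e-05) in R47H. The R47H minus KO difference was 0.05 with an adjusted p of 0.67.

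Of the other stress genes, Trib3 fell in both mutants, Asns fell in KO and less firmly in R47H, and Sesn2 and Ddit4 rose in KO. Asns, which makes asparagine, fell in KO to 62.5% of WT (4.33 ± 0.514 against 6.93 ± 1.00). In R47H it was 5.38 ± 1.33 (difference -0.33, adjusted p = 0.033). Without R47H Rep4 and Rep5 that difference was -0.17 and was not called (adjusted p = 0.25). Leaving out WT Rep4, R47H Rep2, R47H Rep4 or R47H Rep5 singly also ended the call (adjusted p = 0.051 to 0.13). Trib3, a pseudokinase that Atf4 and Chop induce and that restrains them, fell in both mutants from 1.79 ± 0.388 to 1.08 ± 0.114 in KO and 1.08 ± 0.0926 in R47H. At these low levels the log2(FPKQ + 1) difference of -0.42 in KO and -0.41 in R47H understates the ratio. Sesn2, a sensor of leucine that restrains mTORC1, rose in KO from 7.12 ± 0.886 to 9.25 ± 0.890 (0.34, SE 0.08). The rise was called against each wild-type set, at 0.20 for WT Rep1 to Rep5 and 0.48 for WT Rep6 to Rep10. Ddit4, another inhibitor of mTORC1, rose from 0.947 ± 0.168 to 1.34 ± 0.224. Eif4ebp1, a repressor of translation initiation, and Cebpg, a dimerization partner of Atf4, were not called in either mutant, with Cebpg at 18.3 ± 2.06 in WT, 19.0 ± 1.05 in KO and 20.5 ± 2.11 in R47H. Cebpg in R47H was called higher without R47H Rep4 (0.21, adjusted p = 0.049). With WT Rep6 to Rep10 as the sole control it was called higher in R47H (0.27, adjusted p = 0.0063) and in KO (0.18, adjusted p = 0.035).

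**Figure D2:**
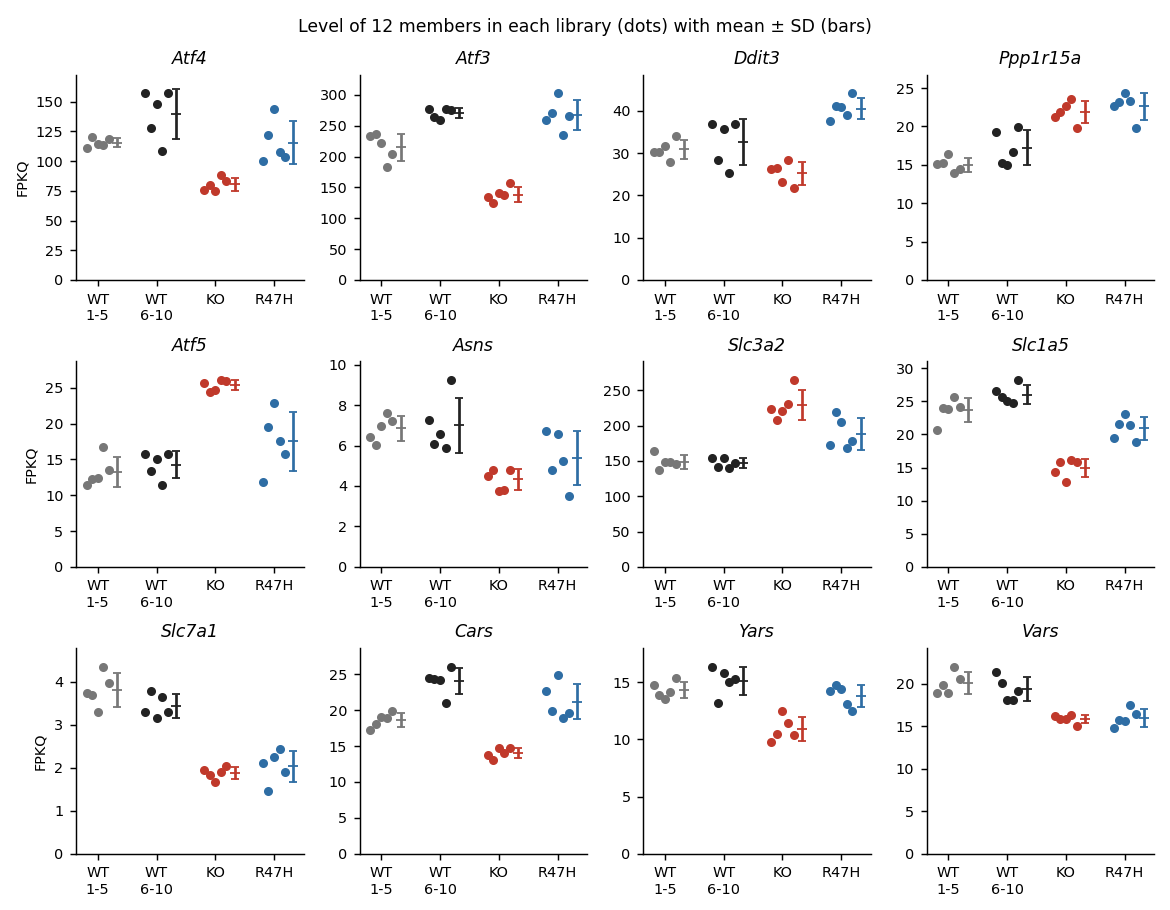
FPKQ (vertical axes, from 0) of 12 members in each library (dots), with mean ± SD beside them (bars), for WT Rep1 to Rep5 (grey), WT Rep6 to Rep10 (black), KO (red) and R47H (blue). The KO dots of Atf4, Atf3, Asns, Slc1a5, Slc7a1, Cars, Yars and Vars sit below all WT dots, and those of Atf5 and Slc3a2 sit above them.

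All 5 transporter genes were called in both mutants, 4 lower and 1 higher, where 23.7% of all tested genes were lower and 28.2% higher in KO, and 7.83% and 13.4% in R47H. These directions were the same under quantile normalization and equal sums, with Slc7a5 in KO no longer called under the first. Slc3a2 (chr19:8706882-8723369, minus strand) encodes CD98, the heavy chain that carries several light-chain transporters to the cell surface. WT libraries lay between 137 and 164 around a median of 148. KO libraries lay at 223.5, 208, 220.3, 231 and 265, and R47H libraries at 173, 219, 205, 168 and 178. Neither mutant overlapped WT. The rise was 0.63 (SE 0.06, adjusted p = 3.2e-08) in KO and 0.34 (SE 0.06, adjusted p = 4.6e-04) in R47H, and R47H was below KO by 0.28 (adjusted p = 0.0041).

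Slc1a5 (chr7:16781340-16798274, plus strand), the glutamine carrier Asct2, fell in KO. Its KO libraries were at 14.3, 15.8, 12.8, 16.1 and 15.8, below all WT libraries, which ran from 20.7 to 28.2 with a median of 24.9. R47H libraries were at 19.5, 21.7, 23.1, 21.5 and 18.9, between the other groups and overlapping WT. The difference was -0.70 (SE 0.06, adjusted p = 7.0e-09) in KO and -0.24 (SE 0.06, adjusted p = 0.010) in R47H. With WT Rep1 to Rep5 as the sole control the R47H call was lost (-0.17, adjusted p = 0.083), as it was without R47H Rep4 and Rep5 (-0.21, adjusted p = 0.055). R47H stood above KO by 0.46 (SE 0.07, adjusted p = 5.9e-05).

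Slc7a1 (chr5:148327410-148399904, minus strand), which carries arginine and other cationic amino acids, fell by similar amounts in both mutants. It was 1.96, 1.83, 1.67, 1.91 and 2.03 in KO and 2.12, 1.47, 2.25, 2.43 and 1.89 in R47H. The WT libraries ran from 3.15 to 4.35 with a median of 3.66. No mutant library reached the WT range. The differences were -0.68 (SE 0.07, adjusted p = 8.0e-08) in KO and -0.61 (SE 0.07, adjusted p = 2.7e-06) in R47H. Their own difference was 0.07 (SE 0.08, adjusted p = 0.55).

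Slc38a2, a sodium-coupled carrier of small neutral amino acids (Snat2), fell from 70.6 ± 3.78 in WT to 47.2 ± 2.29 in KO and 57.8 ± 8.04 in R47H. R47H was above KO by 0.28 (adjusted p = 0.0057), a call lost without R47H Rep4 and Rep5 (0.18, adjusted p = 0.062) and after equal sums (0.24, adjusted p = 0.060). Slc7a5, the leucine-carrying light chain Lat1, was low in all groups at 1.63 ± 0.377 in WT, 1.12 ± 0.320 in KO and 0.969 ± 0.264 in R47H. Its falls (-0.31 in KO, adjusted p = 0.029, and -0.41 in R47H, adjusted p = 0.012) were called against all WT libraries and against WT Rep1 to Rep5. Against WT Rep6 to Rep10 alone they were -0.15 and -0.25 (adjusted p = 0.29 and 0.12). The KO call was also lost without KO Rep2 or without KO Rep3 (adjusted p = 0.094 to 0.10), and the R47H call without R47H Rep2 (adjusted p = 0.053).

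The heavy chain and its light chains were unequal. On the per-length scale Slc3a2 exceeded Slc7a5 by a ratio of 95.9 ± 24.6 in WT, 217 ± 56.1 in KO and 209.8 ± 77.9 in R47H. Among the other light chains, Slc7a7, which exchanges cationic for neutral amino acids, rose in KO from 8.55 ± 1.22 to 26.4 ± 1.79 (1.53, SE 0.08) and in R47H to 13.2 ± 1.49 (0.57, SE 0.08). Slc7a8 (Lat2) rose in KO from 19.6 ± 2.09 to 24.4 ± 1.31, and Slc7a11, the cystine carrier, from 1.46 ± 0.243 to 3.67 ± 0.863. Slc7a6 fell in KO from 7.27 ± 0.726 to 5.35 ± 1.09. In R47H the last 3 were not called, at 19.7 ± 1.17, 1.83 ± 0.396 and 6.96 ± 0.665.

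**Figure D3:**
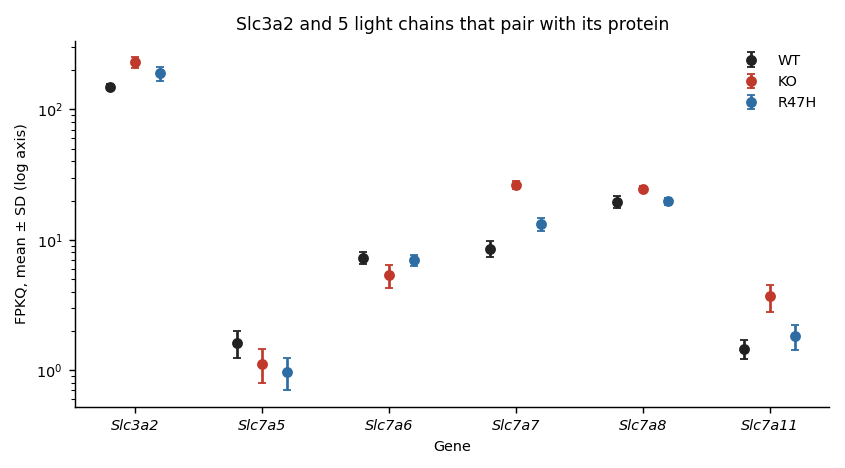
Mean ± SD of FPKQ on a log axis for the heavy chain gene Slc3a2 and 5 light chain genes in WT (black, n = 10), KO (red, n = 5) and R47H (blue, n = 5). Slc7a7 is at 26.4 in KO, 13.2 in R47H and 8.55 in WT, and Slc7a5 is the lowest of the 6 genes in KO and R47H.

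Of the 3 eIF2 kinases among the members, Eif2ak3 (Perk, chr6:70844515-70905245, plus strand) rose in KO. Its KO libraries were at 13.4, 13.7, 13.8, 14.8 and 14.3 against 9.64 to 11.5 in WT, where the median was 10.8. There was no overlap (0.36, SE 0.05, adjusted p = 3.2e-06). R47H libraries were at 11.8, 10.8, 10.4, 12.1 and 12.1, overlapping WT, and the difference of 0.09 was not called (adjusted p = 0.23). Eif2ak4 (Gcn2), the sensor of uncharged tRNA, was 8.04 ± 0.900 in WT, 7.45 ± 0.726 in KO and 8.32 ± 0.434 in R47H, and was not called in either. It differed between the wild-type sets (7.25 ± 0.329 in Rep1 to Rep5, 8.82 ± 0.405 in Rep6 to Rep10), and KO was called lower against the latter alone (-0.22, adjusted p = 0.0028) and R47H higher against the former alone (0.18, adjusted p = 0.033).

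Eif2ak2 (Pkr), the double-stranded RNA sensor that interferon induces, had the widest spread of the member kinases in R47H, at 24.3, 19.1, 16.7, 33.8 and 32.4. R47H Rep4 and Rep5 were above the highest WT library (30.8), and R47H Rep2 and Rep3 were below the lowest (22.6). It was not called against all WT (-0.12, adjusted p = 0.55), and was called lower without Rep4 and Rep5 (-0.41, adjusted p = 0.013). Those same 2 libraries had the highest summed FPKQ of 10 interferon-stimulated genes in R47H (1328 and 1383, against 783 to 1017 in the other 3 and 655 to 1140 in WT), a list chosen after the values of Eif2ak2 had been seen. The part of interferon signalling in this spread was not tested.

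The 18 cytosolic synthetases, which attach amino acids to their tRNAs, were all well expressed, with WT means from 14.7 for Yars to 96.6 for Nars. In KO 10 fell (Cars, Yars, Dars, Vars, Hars, Rars, Gars, Sars, Mars and Tars), 3 rose and 5 were not called, with a median difference of -0.13. With quantile normalization 9 fell and 3 rose, and with equal sums 11 fell and none rose. Over all tested genes 28.2% were higher and 23.7% lower as deposited. Of the 10843 tested genes, 3105 were higher and 2611 lower with quantile normalization, and 2001 and 3532 with equal sums. Among the synthetases the lowest KO levels relative to WT were 65.9% for Cars and 74.1% for Yars, beside 63.0% for Atf4. Summed over the 18 genes, the level was 632 ± 30.3 in WT, 592 ± 10.8 in KO and 626.5 ± 14.0 in R47H. WT Rep1 to Rep5 summed to 607 ± 14.6 and WT Rep6 to Rep10 to 657 ± 18.4, so the KO sums lay just below or within the range of the first set (584 to 623).

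Cars (chr7:143557230-143600090, minus strand), which charges cysteine tRNA, fell most. KO libraries were at 13.8, 13.1, 14.7, 14.0 and 14.7, under the lowest of the WT libraries, which ran from 17.2 to 26.0 with a median of 20.4. The difference was -0.56 (SE 0.09, adjusted p = 1.8e-05). R47H libraries were at 22.6, 19.9, 24.9, 19.0 and 19.6, inside the WT range, and R47H exceeded KO by 0.55 (SE 0.10, adjusted p = 2.3e-04). Cars differed between the wild-type sets as well, at 18.6 ± 1.02 in Rep1 to Rep5 and 24.0 ± 1.83 in Rep6 to Rep10, and KO was below each alone.

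Yars, for tyrosine (chr4:129189760-129219607, plus strand), had KO levels of 9.75, 10.5, 12.5, 11.4 and 10.4, all below the WT range of 13.2 to 16.3 with its median of 14.9. R47H levels were 14.2, 14.8, 14.4, 13.1 and 12.5, overlapping WT. The difference was -0.40 in KO (SE 0.06, adjusted p = 4.9e-06) and -0.09 in R47H (adjusted p = 0.31). Yars was above KO in R47H by 0.32 (SE 0.07, adjusted p = 8.6e-04).

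Vars, for valine (chr17:35000987-35016322, plus strand), was the one synthetase that fell in both mutants. KO levels were 16.2, 15.9, 15.9, 16.3 and 15.1, and R47H levels were 14.8, 15.7, 15.6, 17.5 and 16.4. WT ran from 18.1 to 22.0 with a median of 19.5, above every mutant library. The differences were -0.29 (SE 0.05, adjusted p = 2.7e-05) and -0.29 (SE 0.05, adjusted p = 1.8e-04), and R47H differed from KO by 0.01 (SE 0.06).

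Dars, for aspartate (chr1:128363707-128417368, minus strand), was 29.7, 32.7, 37.95, 32.5 and 34.0 in KO and 46.0, 38.2, 37.8, 40.3 and 40.8 in R47H. WT ran from 36.4 to 47.1 with a median of 42.4, so KO Rep3 reached into the WT range and the other KO libraries did not. The fall in KO was -0.31 (SE 0.06, adjusted p = 2.7e-04), and R47H was not called against WT (-0.03, adjusted p = 0.75).

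Of the other synthetases that fell in KO, Hars went from 41.7 ± 4.00 to 34.1 ± 3.12, Rars from 53.8 ± 5.32 to 45.4 ± 4.51, Gars from 39.8 ± 1.91 to 34.4 ± 2.13 and Sars from 60.6 ± 4.29 to 52.9 ± 1.77. With WT Rep1 to Rep5 as the sole control Rars was not called (-0.12, adjusted p = 0.13). Mars (-0.12, adjusted p = 0.046) and Tars (-0.12, adjusted p = 0.036) were close to the threshold. Mars lost its call without any 1 of 12 libraries (WT Rep1, Rep2, Rep4, Rep6, Rep7, Rep8 or Rep10, KO Rep2, Rep3, Rep4 or Rep5, or R47H Rep5, adjusted p = 0.050 to 0.15). Tars lost it without any 1 of 7 (WT Rep1, Rep2, Rep6 or Rep10, or KO Rep1, Rep2 or Rep5, adjusted p = 0.050 to 0.18).

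Lars, Nars and Wars, for leucine, asparagine and tryptophan, rose in KO. Nars was at 113, 112.5, 114, 115 and 95.5 in KO against 90.5 to 109 in WT, with KO Rep5 apart from the other 4. Wars, which interferon also induces, was at 23.0, 22.1, 20.9, 22.1 and 23.3 against 17.6 to 20.8 in WT, with no overlap. The differences were 0.16 for Lars, 0.18 for Nars and 0.21 for Wars, and none of the 3 was called after equal sums (adjusted p = 0.24, 0.14 and 0.087). In R47H Nars had 107 ± 5.24 against 96.6 ± 5.27 in WT, a rise of 0.14 (adjusted p = 0.040) that was lost in 17 of 30 alternatives. It was lost without any 1 of 11 libraries (WT Rep1 to Rep5, Rep7 or Rep8, or R47H Rep1, Rep2, Rep4 or Rep5, adjusted p = 0.051 to 0.11).

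Aars, Eprs, Iars, Kars and Qars were not called in either mutant, with KO differences from -0.14 (Iars) to 0.04 (Eprs). Iars was 18.9 ± 1.76 in WT, 17.1 ± 1.38 in KO and 16.6 ± 2.14 in R47H, and was called lower in both mutants against WT Rep6 to Rep10 alone (-0.22 and -0.27, adjusted p = 0.018 and 0.014). So was Kars, at -0.17 in KO and -0.14 in R47H (adjusted p = 0.0035 and 0.033). Iars in R47H was also called without R47H Rep4 (-0.22, adjusted p = 0.046), as was Gars without R47H Rep3 (-0.16, adjusted p = 0.024). After equal sums 8 synthetases were lower in R47H, and after quantile normalization 3. Of the 10843 tested genes, 1830 and 1071 were lower in R47H under these scalings. Aars and Iars share 22.4% and 8.61% of their 50-base words with other annotated transcripts, so their levels are less certain.

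**Figure D4:**
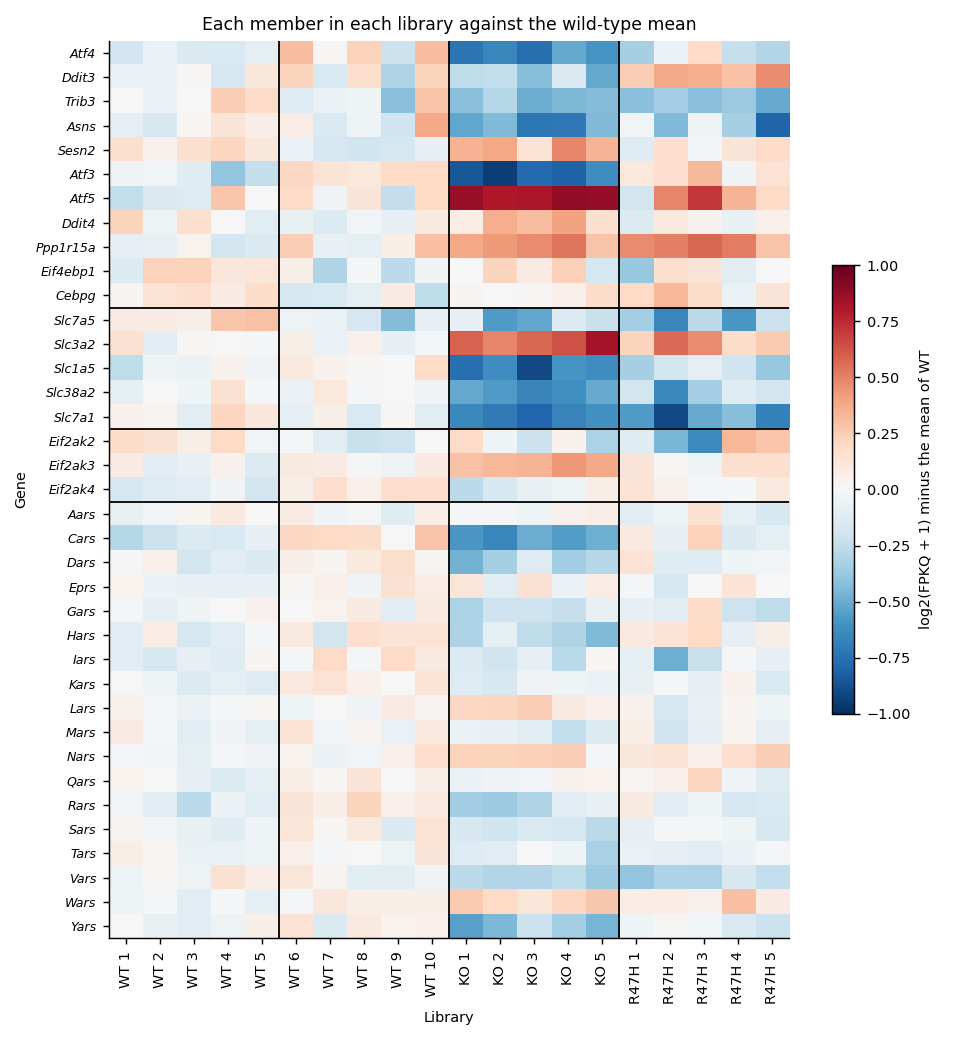
log2(FPKQ + 1) of each tested member (rows, grouped by role) in each of the 20 libraries (columns) minus the mean of the 10 WT libraries, on a colour scale from -1 (blue) to 1 (red). The KO columns are blue for Atf4, Atf3, Slc1a5, Slc7a1 and Cars and red for Atf5 and Slc3a2, and Cars is blue in WT Rep1 to Rep5 and, except in WT Rep9, red in WT Rep6 to Rep10.

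R47H and KO were also compared directly, which leaves the shared controls out of the difference. Each line had its own littermates, so a difference between the lines or their cultures cannot be told apart here from one of genotype. Among the members called in this contrast, Cars, Atf3 and Sesn2 also differed between WT Rep6 to Rep10 and WT Rep1 to Rep5 (0.35, 0.34 and -0.28). In R47H 9 members were higher (24.3%) and 6 lower (16.2%) than in KO, beside 22.8% higher and 18.0% lower among all tested genes, so the members as a set were called about as often as other genes. The higher ones were Atf4, Ddit3, Atf3, Slc1a5, Slc38a2, Cars, Dars, Hars and Yars. The lower ones were Sesn2, Atf5, Ddit4, Slc3a2, Eif2ak3 and Lars. Hars, for histidine, was 44.1 ± 3.23 in R47H and 34.1 ± 3.12 in KO (0.36, SE 0.08, adjusted p = 0.0011), and Atf5 was 17.5 ± 4.10 against 25.4 ± 0.732 (-0.54, SE 0.13, adjusted p = 0.0019). Sesn2 (-0.27, adjusted p = 0.020) lost its call without KO Rep4, R47H Rep1 or R47H Rep3 (adjusted p = 0.051 to 0.060), and Ddit4 (-0.27, adjusted p = 0.020) without KO Rep2, KO Rep4 or R47H Rep1 (adjusted p = 0.051 to 0.054). Asns was called higher in R47H without R47H Rep5 (0.36, adjusted p = 0.015), Sars without R47H Rep5 (0.15, adjusted p = 0.046) and Wars lower without R47H Rep4 (-0.14, adjusted p = 0.024). Without R47H Rep4 and Rep5 together, Asns (0.40, adjusted p = 0.012) and Gars (0.21, adjusted p = 0.018) were called higher in R47H. Eif2ak2 was then called lower (-0.34, adjusted p = 0.032).

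The wild-type sets differed for 7 members. Atf3, Eif2ak4, Cars, Kars and Rars were higher in WT Rep6 to Rep10 than in WT Rep1 to Rep5, and Sesn2 and Cebpg were lower (13.5% and 5.41% of the 37, beside 3.63% and 2.88% of all tested genes). Rars was 58.1 ± 2.82 and 49.5 ± 3.13, Kars 35.2 ± 1.37 and 31.2 ± 1.25, and Sesn2 6.34 ± 0.297 and 7.90 ± 0.393. The count of 7 ranged from 3 to 8 when 1 library was left out, with 3 without WT Rep4 and 4 without WT Rep3, Rep5, Rep6, Rep7 or Rep10. Against WT Rep1 to Rep5 alone, 9 members rose and 16 fell in KO (24.7% and 19.6% of all genes), and 8 rose and 5 fell in R47H (13.9% and 7.22%). Against WT Rep6 to Rep10 alone, 10 rose and 21 fell in KO (27.6% and 24.7%), and 5 rose and 8 fell in R47H (12.7% and 8.40%).

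Genes of neighbouring pathways were read from lists. Of 13 tested further genes that Atf4 is known to induce, 6 fell and 4 rose in KO, and 3 fell in R47H. Of all tested genes 23.7% fell and 28.2% rose in KO, and 7.83% fell in R47H, so the 4 rises are near the background. The falls with the smallest adjusted p were in the serine and one-carbon pathway: Mthfd2 went from 14.3 ± 1.36 in WT to 5.85 ± 0.902 in KO and 9.63 ± 0.511 in R47H, Psat1 from 13.6 ± 1.48 to 5.60 ± 0.827 and 8.89 ± 1.57, and Phgdh from 7.59 ± 1.88 to 1.83 ± 0.436 and 3.89 ± 0.960. For Phgdh, the first enzyme of serine synthesis, the difference was -1.58 (SE 0.15) in KO and -0.80 (SE 0.15) in R47H. These 3 fell further in KO than any of the 37 tested members. The 4 that rose in KO were Slc7a11, Gdf15, Jdp2 and Xpot.

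Of 16 mitochondrial synthetases tested, 5 rose and 2 fell in KO, with a median of 0.02. These counts are near or below the shares of all tested genes (28.2% higher, 23.7% lower). With equal sums 4 rose and 2 fell in KO, where 2001 of the 10843 tested genes rose and 3532 fell. Wars2 went from 2.07 ± 0.200 to 3.28 ± 0.323 and Fars2 from 9.06 ± 0.694 to 10.7 ± 0.627. Whether the mitochondrial and cytosolic lists differ was not tested. The 6 remaining cytosolic genes, namely the phenylalanine subunits Farsa and Farsb, the scaffold genes Aimp1, Aimp2 and Eef1e1, and Tarsl2, had 3 falls in KO: Eef1e1 from 7.93 ± 0.962 to 5.17 ± 0.499, Farsa from 28.5 ± 3.18 to 22.4 ± 1.54 and Farsb from 39.1 ± 2.70 to 34.9 ± 2.75. None rose, beside 23.7% lower and 28.2% higher among all tested genes. In R47H 1 of the 6 fell, Tarsl2 (-0.29, adjusted p = 0.0053), beside 7.83% of all tested genes.

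Of 16 genes of eIF2, its exchange factor and its regulators, 4 rose and 2 fell in KO and 3 rose in R47H. These counts are at or below the shares of all tested genes in KO (28.2% higher, 23.7% lower) and near that in R47H (13.4% higher). With equal sums the KO counts turned to 2 rises and 6 falls, and the R47H counts to 1 rise and 3 falls. Of the 10843 tested genes, 2001 rose and 3532 fell in KO with equal sums, and 475 and 1830 in R47H. Impact, an inhibitor of Gcn2, rose from 25.1 ± 3.44 to 34.2 ± 3.12 in KO and 33.8 ± 3.68 in R47H. Gcn1l1, the ribosome-bound activator of Gcn2, rose in KO from 8.97 ± 0.680 to 11.0 ± 0.708, and Eif2s1, the phosphorylated subunit of eIF2, fell in KO from 35.2 ± 1.69 to 30.4 ± 0.890. Eif2ak1, a further eIF2 kinase that is not among the members, rose by 0.16 in KO (adjusted p = 0.0049) and 0.15 in R47H (adjusted p = 0.018). Against WT Rep6 to Rep10 alone its R47H difference of 0.13 was not called (adjusted p = 0.080).

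Of 15 tested genes on a list of other amino acid and peptide transporters, 10 rose and 4 fell in KO (median 0.32), and 7 rose and 1 fell in R47H. The list also holds Slc43a3, a nucleobase carrier, which was 1 of the 4 falls in KO (-1.125) and the 1 fall in R47H (-0.68). Over all tested genes the shares were 28.2% and 23.7% in KO and 13.4% and 7.83% in R47H, so the 4 falls in KO are near the background. After equal sums the counts were 10 and 4 in KO and 4 and 2 in R47H. For all 10843 tested genes they were then 2001 and 3532 in KO and 475 and 1830 in R47H. Besides Slc7a7, Slc43a2, a carrier of large neutral amino acids, went from 96.2 ± 13.8 to 231 ± 15.0 in KO and 136 ± 6.40 in R47H. Slc36a1, a proton-coupled carrier of the lysosome, went from 13.4 ± 1.72 to 28.8 ± 2.41 and 17.7 ± 1.76.

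The ER stress list depended on the wild-type set. Of its 19 genes, 14 were higher and 1 lower (Ern1) in WT Rep6 to Rep10 than in WT Rep1 to Rep5, beside 3.63% and 2.88% of all tested genes. In R47H 11 rose and none fell against all WT (13.4% and 7.83% of all tested genes), with 15 rises against WT Rep1 to Rep5 alone (13.9%), 7 against WT Rep6 to Rep10 alone (12.7%) and 3 after equal sums. With equal sums 475 of the 10843 tested genes rose in R47H. In KO 5 rose and 3 fell against all WT (28.2% and 23.7% of all tested genes), 12 rose and 1 fell against WT Rep1 to Rep5 (24.7% and 19.6%), and 4 rose and 8 fell against WT Rep6 to Rep10 (27.6% and 24.7%). The chaperone Hspa5 stood at 430 ± 87.7 in WT, 397 ± 7.18 in KO and 561 ± 10.1 in R47H. Ern1, the ER stress sensor Ire1, rose in KO from 12.6 ± 3.12 to 22.4 ± 1.62, Canx, a lectin chaperone, rose from 183 ± 11.0 to 215 ± 6.82, and Edem1, which aids degradation of misfolded proteins, fell from 85.1 ± 5.36 to 71.2 ± 4.59.

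**Figure D5:**
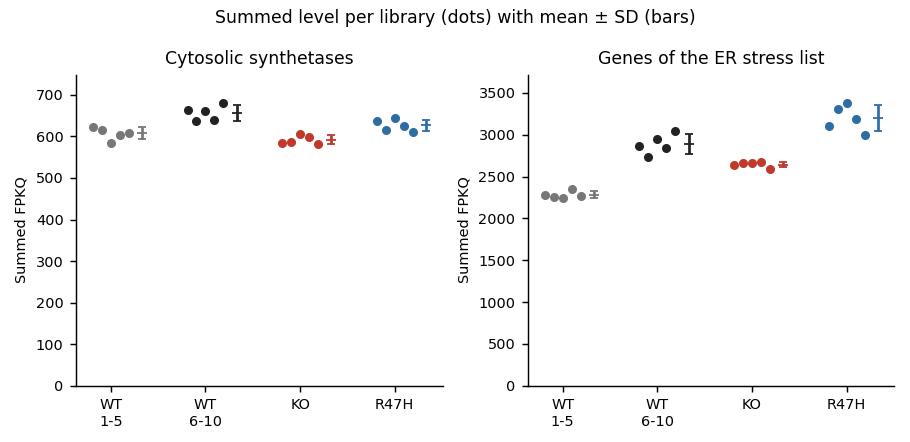
Summed FPKQ (vertical axes, from 0) of the 18 cytosolic synthetases (left) and of the 19 genes of the ER stress list (right) in each library (dots), with mean ± SD (bars). The left panel spans 581 to 681 over all libraries, and in the right panel WT Rep1 to Rep5 lie at 2281 ± 43.0, WT Rep6 to Rep10 at 2886 ± 117, KO at 2643 ± 30.5 and R47H at 3195 ± 156.

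Some marker genes moved with genotype. The 6 cell division genes fell in both mutants, from a summed FPKQ of 142 ± 10.5 in WT to 30.6 ± 1.52 in KO and 68.3 ± 11.7 in R47H. The 12 neutrophil markers summed to 72.3 to 109 in WT, 99.9 to 132.5 in KO and 88.0 to 154 in R47H, and Ly6g was listed at 0 in all WT and KO libraries. Of the 5 that could be tested, only Csf3r was called in KO, at 29.8 ± 4.03 in WT and 55.6 ± 1.23 in KO, while S100a8, S100a9, Ngp and Ltf were not. In R47H Csf3r (43.1 ± 3.80) and Ngp were called higher. The 6 lymphocyte markers summed to at most 0.587 in any library, the 5 erythroid markers to at most 0.539, and the 6 dendritic markers to at most 3.10. The 5 stromal markers summed to 0.187 to 0.428 in WT, 0.708 to 1.84 in KO and 0.0895 to 0.827 in R47H, so KO did not overlap WT. The 4 mast cell markers summed to 2.51 to 5.60, mostly from Kit, which fell in KO from 4.42 ± 0.600 to 3.13 ± 0.598 (-0.40, adjusted p = 0.0019). The part of any of these markers in the differences of the members was not tested.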

How the data were processed

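The values deposited by the authors are FPKM-like levels made with RSEM on GRCm38, per the submitters' processing notes, in 1 table per library headed FPKQ. No source used here defines FPKQ or gives the RSEM version, and FPKQ was read as FPKM on a quantile-set scale. RSEM can divide fragments between similar genes. Depth was estimated from low values of single-transcript genes, of which 84.6% to 88.1% were whole multiples of 1 fragment within 0.1. No 2 libraries held identical values. Genes averaging 1 FPKQ or more over the 20 libraries were analysed as log2(FPKQ + 1) with limma 3.58.1 in R 4.3.3 (lmFit, then eBayes with an intensity trend), all 3 genotypes in one fit, with Benjamini-Hochberg adjustment over 10843 genes. The fit was also run on simulated data with 200 changed genes, and the outcome is not given here. Summaries used Python 3.11.15 and pandas 2.3.3, and positions GENCODE M21.

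The members, lists and tests were chosen with earlier results of these data known. Values in each library are given for Atf4 and the members with the smallest adjusted p in each role group (4 stress genes, 3 transporters, 1 kinase and 4 synthetases in KO, 1 of each in R47H), and for Ddit3, Nars, Wars and Eif2ak2, chosen after their values were seen. Up to 3 genes with the smallest adjusted p in KO are named from each further list. One gene that this rule picks is not reported here. Other genes named from those lists (Slc7a6, Slc7a8, Slc7a11, Slc43a3, Gdf15, Jdp2, Xpot, Tarsl2, Eif2ak1, Hspa5) and from the marker lists were also picked with their values known. The settings varied were the control set, pseudocount, filter, scaling, groups fitted, replicate block and single libraries left out. The fit without R47H Rep4 and Rep5 was added after seeing the data. P-values measure the spread between cultures, and the labels do not tie libraries to single animals.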

Additional observations from a re-analysis of the deposited data

Results flagged for a closer look

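In 6 of the 114 groups of values examined (38 genes in 3 genotypes), 1 library stood apart from its group by Dixon's gap test, and chance alone flags about 1 group in 20. Asns was 9.24 FPKQ in WT Rep10, with the next WT library at 7.60. Nars was 109 (109.3) in WT Rep10, with the next at 100.1, and 95.5 in KO Rep5, with the other KO libraries from 112.5 to 115. Cebpg was 20.9 in KO Rep5, against 18.9 for the next. Wars was 23.7 in R47H Rep4, against 20.2 for the next. Chac1 was 0.250 in R47H Rep3, against 0.0964 for the next, at a level where a few fragments decide the value. The causes were not tested.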

How the results depend on the processing

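No member changed direction among the values called in any alternative. Of the 28 members called in KO, 19 were called under every alternative, and of the 12 in R47H 7 were. For R47H against KO it was 12 of 15. The count of members that rose in R47H was 5, and it was 8 against WT Rep1 to Rep5 alone, 3 without the filter on low values, 3 after quantile normalization and 3 after equal sums. It ranged from 3 to 5 when 1 library was left out and was 3 without WT Rep1, Rep2, Rep3, Rep5 or Rep7 or R47H Rep2. Of the 10843 tested genes, 1452 rose in R47H as deposited, 1013 after quantile normalization and 475 after equal sums. The count that fell in R47H was 7, and it was 4 with a minimum mean of 5 (33 members tested) and 15 after equal sums. Of all tested genes, 544 of 8234 fell with that minimum and 1830 of 10843 after equal sums. The 7 members that differed between the wild-type sets ranged from 3 to 8 when 1 library was left out, with 3 without WT Rep4 and 4 without WT Rep3, Rep5, Rep6, Rep7 or Rep10. The counts in KO and in R47H against KO stayed within 1.5 times of their values in every alternative.

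With the replicate number as a replicate block (WT Rep1 to Rep5, KO and R47H), 8 members rose and 15 fell in KO, and 5 rose and 5 fell in R47H. Of the 10843 tested genes, 2411 rose and 1987 fell in KO, and 1155 and 647 in R47H. Same-numbered libraries correlated at -0.25 to 0.34 (KO with WT) and 0.02 to 0.22 (R47H with WT) in their deviations from group means, and the labels do not tie the numbers to litters, so they share only a number. Under the block Gars, Rars, Mars, Tars and Ddit4 in KO (adjusted p = 0.060, 0.20, 0.23, 0.22 and 0.12), Asns, Slc1a5, Atf5 and Nars in R47H (0.12, 0.12, 0.060 and 0.057) and Ddit4 in R47H against KO (0.061) were not called, and Atf3 and Wars in R47H were called (0.016 and 0.044). It changed no other call.

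Depth matters most for the members at low levels. Chac1, Ddit4, Trib3 and Slc7a5 lay below 3 FPKQ in every library, and Slc7a1 lay below 3 FPKQ in every KO and R47H library.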
